A study of Homo sapiens with 8 samples.

Results

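The genes described here are the ligands and receptors of the epidermal growth factor (EGF) receptor family that were measured by fastGRO-seq in IMR90 cells, together with the feedback inhibitor ERRFI1. They were chosen by name: 10 genes (AREG, EREG, HBEGF, TGFA, BTC, NRG1, EGFR, ERBB2, ERBB3 and ERRFI1), each with 1 row of the 27945 in the deposited count table. The cells were primary human lung fibroblasts with an inducible fusion of the estrogen receptor and an oncogenic H-RAS (ER:RAS), which the study's senescence protocol activates with 100 nM 4-hydroxytamoxifen (4-OHT). fastGRO-seq lets RNA polymerases in isolated nuclei extend the transcripts they are engaged on and sequences the labeled RNA, so that it reads transcription in progress. There were 4 groups of 2 libraries: control cells, and senescent cells carrying a control hairpin (shControl), a hairpin against METTL3 (shMETTL3) or a hairpin against METTL14 (shMETTL14). METTL3 and METTL14 are subunits of the m6A RNA methyltransferase complex. The labels of the control libraries name no hairpin, so senescence and hairpin infection cannot be told apart in comparisons with control cells. The study calls its fastGRO-seq experiments in senescent and proliferating cells biologically independent, while the labels do not say whether libraries of a group came from separate cultures, and p-values measure the spread between these libraries.

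EGF-type ligands are made as membrane precursors and released by metalloproteases such as ADAM17. AREG, EREG, HBEGF, TGFA and BTC bind EGFR, and HBEGF, EREG and BTC also bind ERBB4, while NRG1 binds ERBB3 and ERBB4. ERBB2 has no known soluble ligand and acts as a dimer partner, and EGFR signals through GRB2, SHC1 and SOS proteins to RAS and ERK. ERRFI1 (MIG6) binds the activated EGFR kinase domain, blocks it, and is itself induced by ERK signaling. In fibroblasts that enter senescence, growth factors of this family belong to the secreted products that act on neighbouring cells.

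Library totals ranged from 14897360 to 20306299 counts, of which 86.2% to 92.5% lay in 21 rows of ribosomal RNA, leaving 1513930 to 2048475 counts. METTL3 had 16 and 19 counts with shMETTL3 against 77 and 47 with shControl, a log2 fold change of -2.04 (SE 0.31, edgeR adjusted p = 1.8e-05). METTL14 had 18 and 14 counts with shMETTL14 against 24 and 28 with shControl, a log2 fold change of -0.86 that did not pass the test (SE 0.34, edgeR adjusted p = 0.076). These counts read transcription in progress and not mature RNA or protein, so they do not measure how far each knockdown went. The study refers to a western blot for both knockdowns. The 2 shMETTL3 libraries differed from each other more than other replicates did: over 3883 genes the mean chi-square of replicate counts was 17.7 with shMETTL3, 7.53 with shMETTL14, 2.51 with shControl and 2.27 in control cells. Defining fibroblast genes were transcribed in all libraries. The summed normalized count of 12 fibroblast markers was 41526 to 44494 in control cells, 31625 to 33227 with shControl, 30720 to 35923 with shMETTL3 and 17019 to 20419 with shMETTL14, and none was at 0. The sum of 10 epithelial markers lay between 24.6 and 90.0, with KRT5, ESRP1 and GRHL2 at 0 in every library, that of 6 endothelial markers between 57.0 and 116, and that of 8 leukocyte markers between 20.9 and 81.6, with CD3E and MS4A1 at 0. In bulk nuclei, fewer cells that transcribe a gene and less transcription per cell cannot be told apart.

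EREG, HBEGF and ERRFI1 followed similar courses over the 8 libraries (Pearson r of log2 CPM was 0.987 for EREG and ERRFI1, 0.930 for EREG and HBEGF, and 0.917 for HBEGF and ERRFI1, as a description over libraries that share groups and depth). Their promoters are shown because of these correlations, which include the step from control to senescent cells. The 3 genes parted with shMETTL3 against shControl, where HBEGF (log2 fold change -1.40) and EREG (-0.82) were called lower and ERRFI1 (-0.21) was not called. Each line gives the 250 bases before the start of the counted row, read 5′ to 3′ on the strand of the gene from the hg19 genome, with starts from the RefSeq rows: EREG at chr4:75230610-75230859 (plus strand), HBEGF at chr5:139726189-139726438 (minus strand) and ERRFI1 at chr1:8086394-8086643 (minus strand). Capitals mark the only matches to the motifs searched.
EREG promoter: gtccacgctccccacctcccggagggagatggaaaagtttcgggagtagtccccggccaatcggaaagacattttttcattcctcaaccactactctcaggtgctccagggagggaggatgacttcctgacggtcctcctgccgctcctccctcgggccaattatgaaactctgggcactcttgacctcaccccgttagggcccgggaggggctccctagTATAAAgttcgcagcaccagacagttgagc
HBEGF promoter: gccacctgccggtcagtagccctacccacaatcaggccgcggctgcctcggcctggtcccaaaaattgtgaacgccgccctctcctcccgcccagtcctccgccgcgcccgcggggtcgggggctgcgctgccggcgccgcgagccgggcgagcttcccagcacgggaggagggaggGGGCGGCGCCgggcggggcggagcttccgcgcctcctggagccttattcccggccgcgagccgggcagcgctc
ERRFI1 promoter: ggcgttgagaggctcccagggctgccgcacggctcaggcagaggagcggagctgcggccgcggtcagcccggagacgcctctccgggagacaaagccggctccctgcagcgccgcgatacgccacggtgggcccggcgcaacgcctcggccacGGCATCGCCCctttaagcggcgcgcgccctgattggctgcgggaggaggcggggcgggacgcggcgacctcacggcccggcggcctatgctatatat
The capitals in EREG are a TATA box (TATAAA) 30 to 25 bases before the start, and those in HBEGF (73 to 64 bases before) and ERRFI1 (97 to 88 bases before) match the NF-kappaB pattern, GGG and CC with any 5 bases between, on either strand. The motifs were searched on both strands of 26994 promoters of the same length. TATAAA was found in 10.5% of them, the NF-kappaB pattern in 55.1%, the AP-1 motif TGANTCA in 5.98%, the CRE TGACGTCA in 1.60%, the C/EBP motif TTGCNNAA in 8.25%, the EGR motif GCGNGGGCG in 8.59% and the SRF CArG box in 1.15%. The 3 promoters shared no motif of this list other than the common NF-kappaB pattern in HBEGF and ERRFI1. They also differed in base composition, with a GC content of 58.0% in EREG, which is the median of all promoters, against 76.4% in HBEGF and 73.6% in ERRFI1. Of the other genes, ERBB2 held an AP-1 match (TGATTCA) 212 to 206 bases before its start, and TGFA, BTC, NRG1, EGFR and ERBB3 held the NF-kappaB pattern. AREG, whose row joins 2 copies, was not searched.

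The first comparison asked how transcription of these genes differed between control and senescent cells. NRG1, EREG, HBEGF, ERRFI1 and AREG were higher in senescent shControl cells, ERBB2 was lower, and EGFR itself did not pass the test. Of the 10 genes, 7 passed the filter on low counts. Among these 6 were called, where 26.6% of all tested genes were. Of the 6, 5 were called higher, where 13.3% of all 12844 genes tested were called higher, and 1 was called lower, where 13.3% were called lower (edgeR's quasi-likelihood test, Benjamini-Hochberg adjusted p below 0.05). TGFA, BTC and ERBB3 were not tested. The filter, which needs about 10 counts in at least 2 libraries, was passed by EREG, NRG1, EGFR, ERBB2 and ERRFI1 in all 8 libraries. HBEGF passed in no control library but in all 6 senescent ones, and AREG only in the shMETTL3 libraries, where it was highest, so that in comparisons of these genes with their low groups the filter favored a difference and the counts of called genes are descriptions. Without AREG, 5 of 6 genes were called in this comparison, and without AREG and HBEGF 4 of 5. AREG was not tested in a fit of only these groups. Cell type markers moved in this comparison too. Of the 12 fibroblast markers 8 were called lower and 1 higher (median log2 fold change -0.85), and CD68, the only leukocyte marker tested of 8, was called higher (2.05, from 17 and 16 counts in control cells to 60 and 45). Of 3 tested epithelial markers 1 was called higher, and of 2 tested endothelial markers TIE1 was called higher (from 0 and 0 counts to 7 and 6) and TEK lower (from 105 and 123 to 37 and 48). The part of these markers in the results was not tested.

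**Figure D1:**
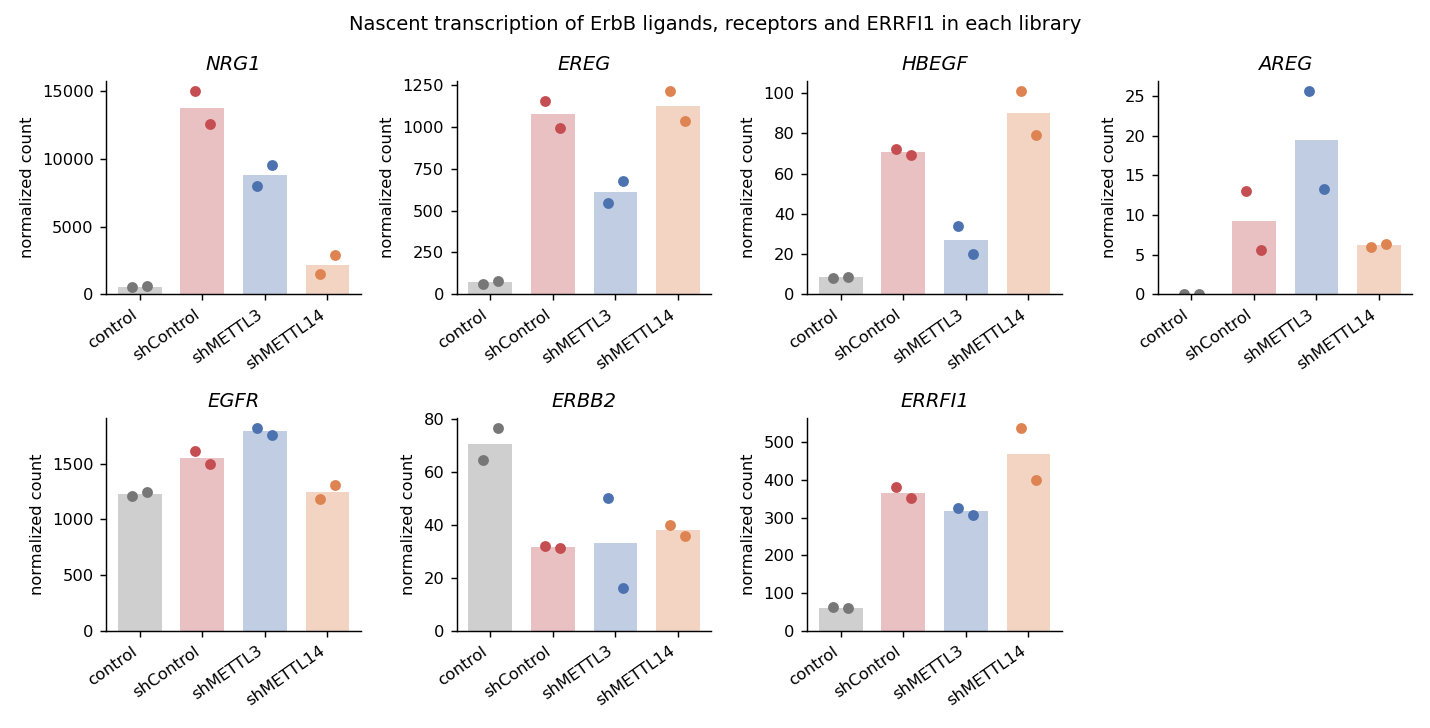
Normalized counts (counts scaled to a common library size by TMM) of the 7 tested genes in control cells and in senescent cells with shControl, shMETTL3 or shMETTL14; points are single libraries, bars are means of 2 libraries and each axis starts at 0. NRG1 and EREG are lowest in control cells, NRG1 falls to a mean of 2173 with shMETTL14, and EREG falls to 610 with shMETTL3.

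NRG1, the neuregulin that signals through ERBB3 and ERBB4, was counted 612 and 670 times in the control libraries, and 12703 and 11320 times with shControl. Both senescent libraries lay far above both control libraries. The normalized count was 563 ± 29.3 (SD, n = 2) in control cells and 13808 ± 1711 with shControl, which is 24.5-fold higher (log2 fold change 4.62, SE 0.22, edgeR adjusted p = 3.6e-15). By count NRG1 ranked 375 of 19475 protein-coding rows in control cells and 2 with shControl, where it took 0.839% and 0.718% of all counts outside ribosomal RNA. It is a long gene, and per kilobase its rank went from 3969 to 125. The row counts a single RefSeq transcript, NM_013956, over chr8:32405728-32625475 on the plus strand in hg19, which is 18.1% of the NRG1 span in GENCODE (chr8:31496738-32713184), so NRG1 transcription outside the counted span was not analysed here, while transcription that starts upstream and runs through that span is counted in the row.

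EREG, the epiregulin gene on chromosome 4 (chr4:75230860-75254477, plus strand), encodes a ligand of EGFR and ERBB4. The control libraries held 71 and 90 counts and the shControl libraries 977 and 895. The groups did not overlap. Its normalized count was 70.6 ± 10.96 in control cells and 1076 ± 112 with shControl, which is 15.2-fold higher (log2 fold change 3.93, SE 0.18, edgeR adjusted p = 8.2e-16). Per kilobase EREG was the most transcribed EGFR ligand in each of the 8 libraries, with 82.0% to 91.1% of the summed level of AREG, EREG, HBEGF, TGFA and BTC.

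HBEGF, heparin-binding EGF-like growth factor (chr5:139712428-139726188, minus strand), rose from 9 and 10 counts in the control libraries to 61 and 62 with shControl. The senescent libraries were closely alike and well above the control libraries. The normalized count was 8.34 ± 0.52 in control cells and 70.6 ± 2.20 with shControl, which is 8.35-fold higher (log2 fold change 3.06, SE 0.34, edgeR adjusted p = 6.3e-08).

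AREG, amphiregulin (chr4:75310815-75320726, plus strand), had 0 counts in both control libraries, against 11 and 5 in the shControl libraries. Its count stayed low in every group. Against a floor of 3 counts in each control library it was at least 3.52-fold higher with shControl (edgeR adjusted p = 0.0012). This bound rested on few counts, and without shControl replicate 1 it was 2.11-fold (adjusted p = 0.043). The AREG row joins 2 copies of the gene in hg19, AREG and AREGB. Of the 50-base words of AREG, 92.6% also occur in AREGB, so its counts are uncertain where reads were split between the copies or dropped.

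TGFA and BTC were close to absent. TGFA (chr2:70674412-70780770, minus strand), transforming growth factor alpha, had no count in control cells, 3 in each shControl library, 1 and 0 in the shMETTL3 libraries and 0 and 4 in the shMETTL14 libraries. BTC (chr4:75669970-75719896, minus strand), betacellulin, had 1 count in 1 shControl library, 1 count in 1 shMETTL14 library and 0 in the other 6. A count of 0 in a library allows up to 3, so a difference between groups was not detectable for these genes at this depth, and these limits cover counting error only.

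Among the receptors, EGFR (chr7:55086714-55275773, plus strand) gave 1367 and 1426 counts in the control libraries, against 1366 and 1344 with shControl. After normalization it was 1226 ± 22.1 and 1555 ± 84.2, and the groups did not overlap, but the log2 fold change of 0.34 (SE 0.13) missed the threshold (edgeR adjusted p = 0.055). It did pass in a fit of only the groups compared (0.38, adjusted p = 0.00012), without the ribosomal RNA rows (0.37, adjusted p = 0.041), with an offset for gene length (0.48, adjusted p = 0.0033) and without any 1 of the 4 knockdown libraries (0.35 to 0.38, adjusted p between 0.019 and 0.028), while with scaling by library size alone, where the median over all tested genes was -0.53, it was at -0.16 (adjusted p = 0.41), or 0.38 relative to that median. ERBB2 (chr17:37844337-37884915, plus strand), the ligandless partner receptor, went from 73 and 88 counts in the control libraries to 27 and 28 with shControl, a log2 fold change of -1.16 (SE 0.32, edgeR adjusted p = 0.0081). This call rested on few counts: it was lost without control replicate 2 (-1.03, edgeR adjusted p = 0.074) and without shControl replicate 1 (-1.17, adjusted p = 0.074) or replicate 2 (-1.13, adjusted p = 0.075). ERBB3 (chr12:56473809-56497291, plus strand), the NRG1 receptor that needs a partner kinase, had 1 count in 1 shControl library and 0 in the other 7. The table was counted without separating strands, and EGFR shares 4.87% of its span with EGFR-AS1, which itself had 19 to 48 counts per library, and ERBB2 shares 0.402% of its span with MIEN1.

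ERRFI1 (chr1:8071779-8086393, minus strand), the inhibitor of the EGFR kinase, went from 72 and 69 counts in the control libraries to 322 and 316 with shControl. Replicates were nearly alike in both groups. The normalized count was 61.9 ± 2.60 and 366 ± 20.5, which is 5.90-fold higher (log2 fold change 2.56, SE 0.17, edgeR adjusted p = 6.2e-12).

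Ligand and receptor transcription can be set side by side per kilobase of gene. The ratio of NRG1 to EGFR, both in normalized counts per kilobase, was 0.385 and 0.404 in control cells and 8.0 and 7.25 with shControl. The ratio of EREG to EGFR was 0.415 and 0.505 in control cells and 5.73 and 5.33 with shControl. Both ligands thus lay below EGFR in control cells and above it in senescent shControl cells, whereas the ratio of ERBB2 to EGFR was 0.249 and 0.288 in control cells and 0.092 and 0.097 with shControl.

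**Figure D2:**
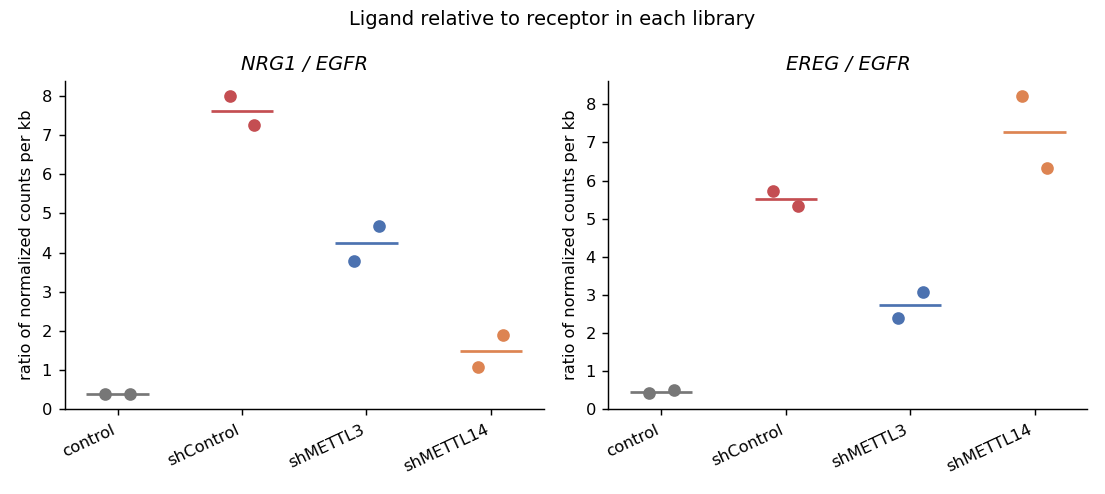
Ratio of NRG1 (left) and EREG (right) to EGFR, each in normalized counts per kilobase, in each library; points are libraries and lines are means of 2 libraries. NRG1 to EGFR is highest with shControl (7.25 and 8.0) and is 1.07 and 1.89 with shMETTL14, where EREG to EGFR is highest (6.32 and 8.22).

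The second comparison asked what METTL3 knockdown changed in senescent cells. EREG, HBEGF and NRG1 were lower with shMETTL3 than with shControl. They were the 3 called genes of 7 tested, where 23.4% of all tested genes were called. None of the 7 tested genes was called higher (0), where 12.2% of all tested genes were called higher, and 3 of 7 were called lower, where 11.2% were (edgeR, adjusted p below 0.05). Beside the 3 called genes, no further gene of the 7 had an unadjusted p under 0.05, and DESeq2 called 0 higher too.

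HBEGF had 33 and 21 counts with shMETTL3 against 61 and 62 with shControl. The groups did not overlap. The normalized count was 26.9 ± 9.84, which is 2.63-fold lower (log2 fold change -1.40, SE 0.28, edgeR adjusted p = 0.00057). EREG had 530 and 712 counts against 977 and 895, also without overlap. Its normalized count was 610 ± 93.5, which is 1.76-fold lower (log2 fold change -0.82, SE 0.15, edgeR adjusted p = 0.00015). Of the rise from control to shControl, 29.8% was left with shMETTL3 for HBEGF and 53.7% for EREG. By library, 41.0% and 18.6% was left for HBEGF and 47.1% and 60.2% for EREG.

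NRG1 had 7821 and 10088 counts with shMETTL3 against 12703 and 11320 with shControl. Normalized counts were 8024 and 9578 against 15018 and 12599, without overlap, and the mean was 1.57-fold lower (log2 fold change -0.65, SE 0.19, edgeR adjusted p = 0.014). This was the weakest of the 3 calls. It was lost without shControl replicate 1 (-0.53, edgeR adjusted p = 0.17) and with DESeq2 (-0.63, adjusted p = 0.26). With scaling by library size alone the median over all tested genes was 0.58, and the calls of NRG1 (-0.02, edgeR adjusted p = 0.92) and EREG (-0.19, edgeR adjusted p = 0.39) were both lost. Relative to that median NRG1 was at -0.60 and EREG at -0.77. Of the 12 fibroblast markers 2 were called higher and 3 lower with shMETTL3 (median -0.03), and CD68 was called lower (-0.84), and their part in the results was not tested.

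The other tested genes did not pass. AREG had 25 and 14 counts with shMETTL3 against 11 and 5, with a log2 fold change of 1.06 (SE 0.55, edgeR adjusted p = 0.17). EGFR had 1775 and 1850 counts against 1366 and 1344, with a log2 fold change of 0.20 (SE 0.13, edgeR adjusted p = 0.29). ERRFI1 had 317 and 325 counts against 322 and 316, with a log2 fold change of -0.21 (SE 0.15, edgeR adjusted p = 0.33). ERBB2 had 49 and 17 counts with shMETTL3, so its replicates stood on both sides of the 27 and 28 with shControl, and its log2 fold change was 0.06 (SE 0.37, edgeR adjusted p = 0.93).

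Gene length moved with this comparison. Tested genes within 1.5 times the length of NRG1 had a median log2 fold change of 0.31 with shMETTL3 against shControl, those like EGFR had 0.29, those like EREG had -0.15 and those like HBEGF had -0.22. NRG1 thus fell in a length class whose median was above 0, and HBEGF and EREG fell further than the medians of theirs. With an offset for gene length the 3 calls held.

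The third comparison asked the same of METTL14 knockdown. NRG1 fell steeply, and none of the EGFR ligands was called. Of the 7 tested genes, 1 was called, where 21.2% of all tested genes were (edgeR, adjusted p below 0.05). DESeq2 also called 1. Scaling by library size alone called 4, with EREG (0.43), HBEGF (0.71) and ERRFI1 (0.72) higher. The median over all tested genes was then 0.35, and relative to it these were at 0.07, 0.36 and 0.37.

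NRG1 had 1474 and 2728 counts with shMETTL14 against 12703 and 11320 with shControl. Normalized counts were 1473 and 2873 against 15018 and 12599, so that both libraries lay far below both shControl libraries while differing from each other. The mean was 2173 ± 990 (SD, n = 2), which is 6.36-fold lower (log2 fold change -2.67, SE 0.20, edgeR adjusted p = 2.1e-10), and 12.2% of the rise from control to shControl was left, with 6.87% in one library and 17.4% in the other. Over the 8 fits that each left out 1 library the log2 fold change lay between -3.23 and -2.29. NRG1 still ranked 32 among protein-coding rows by count, and it remained above control cells (log2 fold change 1.95, SE 0.20, edgeR adjusted p = 1.3e-08). Fibroblast markers moved with this result: 10 of the 12 were called lower with shMETTL14 against shControl. Of 2 tested endothelial markers 1 was called higher and 1 lower, and the part of these markers in the fall of NRG1 was not tested.

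EREG had 1214 and 982 counts with shMETTL14 against 977 and 895, and after normalization the groups overlapped (log2 fold change 0.06, SE 0.14, edgeR adjusted p = 0.80). HBEGF had 101 and 75 counts against 61 and 62, with a log2 fold change of 0.35 (SE 0.24, edgeR adjusted p = 0.32). ERRFI1 had 539 and 381 counts against 322 and 316, with a log2 fold change of 0.36 (SE 0.14, edgeR adjusted p = 0.073). The replicates of ERRFI1 differed with shMETTL14, and without shMETTL14 replicate 2 it was called higher (0.56, edgeR adjusted p = 0.013).

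AREG had 6 and 6 counts against 11 and 5 (log2 fold change -0.57, SE 0.67, edgeR adjusted p = 0.60). EGFR had 1182 and 1243 counts against 1366 and 1344, with a log2 fold change of -0.32 (SE 0.13, edgeR adjusted p = 0.086). ERBB2 had 40 and 34 counts against 27 and 28 (log2 fold change 0.27, SE 0.36, edgeR adjusted p = 0.65). None of these 3 genes passed the test.

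**Figure D3:**
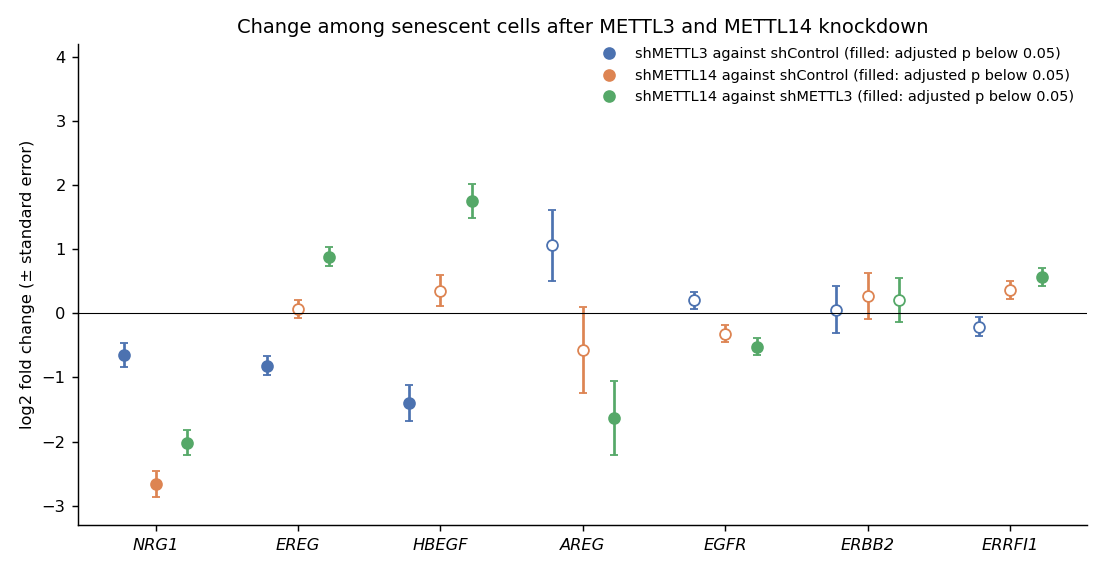
Log2 fold change (points) with its standard error (bars) for the 7 tested genes in shMETTL3 against shControl (blue), shMETTL14 against shControl (orange) and shMETTL14 against shMETTL3 (green), all in senescent cells; filled points have an edgeR adjusted p below 0.05. NRG1 is lower in both knockdowns and more so with shMETTL14 (-2.67), while EREG and HBEGF are called lower with shMETTL3 (-0.82 and -1.40), not with shMETTL14, and are higher with shMETTL14 than with shMETTL3.

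The knockdowns share the shControl libraries, so they were also set directly against each other. The EGFR ligands EREG and HBEGF were higher with shMETTL14 than with shMETTL3, and NRG1 was lower. Of 7 tested genes, 6 were called, where 35.2% of all tested genes were. Of the 6, 3 were called higher, where 16.5% of all tested genes were, and 3 lower, where 18.7% were (edgeR, adjusted p below 0.05). Without AREG, which only the shMETTL3 libraries carried past the filter, 5 of 6 were called. HBEGF was 3.36-fold higher with shMETTL14 (log2 fold change 1.75, SE 0.27, edgeR adjusted p = 1.3e-05) and EREG 1.84-fold higher (0.88, SE 0.15, edgeR adjusted p = 3.2e-05). NRG1 was 4.05-fold lower (-2.02, SE 0.20, edgeR adjusted p = 1.7e-08). Epithelial markers moved in this comparison too. The 3 that were tested were all called higher with shMETTL14 than with shMETTL3, their list summing to 72.7 and 90.0 against 24.6 and 24.7 normalized counts. Among them CLDN4 had 13 and 10 counts with shMETTL14 and at most 6 in any other library, so the filter favored its call. KRT18 shares 24.7% of its span with KRT8 on the other strand, so their counts are not separate. With shMETTL3 against shControl, where EREG and HBEGF were called lower, none of the 3 was called (0). Of the 12 fibroblast markers 8 were called lower and 1 higher (median log2 fold change -0.95). These markers did not follow NRG1 in every comparison. Their median was -0.85 with shControl against control, where NRG1 was called higher, and -0.03 with shMETTL3 against shControl, where NRG1 was called lower. Of 2 tested endothelial markers 1 was called higher and 1 lower. The part of these lists in the results was not tested.

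ERRFI1 was called higher with shMETTL14 than with shMETTL3 (0.57, SE 0.14, edgeR adjusted p = 0.0029), EGFR lower (-0.52, SE 0.13, edgeR adjusted p = 0.0029) and AREG lower (-1.63, SE 0.58, edgeR adjusted p = 0.030). These 3 calls were less firm. Genes of the length of EGFR had a median log2 fold change of -0.42 in this comparison, and with an offset for gene length EGFR was at -0.16 (edgeR adjusted p = 0.32) and ERRFI1 at 0.31 (adjusted p = 0.076). ERRFI1 was at 0.32 without shMETTL14 replicate 1 (edgeR adjusted p = 0.18) and with scaling by library size alone (edgeR adjusted p = 0.17), the latter being 0.56 relative to the median of -0.25 over all tested genes. AREG, with 14 to 25 counts against 6 and 6, was lost without shControl replicate 1 (edgeR adjusted p = 0.051), shMETTL3 replicate 1 (adjusted p = 0.22), shMETTL14 replicate 1 (adjusted p = 0.19) or shMETTL14 replicate 2 (adjusted p = 0.14), and with DESeq2 (adjusted p = 0.13). ERBB2 was not called (0.21, SE 0.35, edgeR adjusted p = 0.67), but without shMETTL3 replicate 1, which had 49 counts, it was at 1.24 (adjusted p = 0.0085).

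Set against control cells, EREG, NRG1 and ERRFI1 were called higher with both knockdowns, as were HBEGF and AREG, which no control library carried past the filter. Markers moved here too. Of the 12 fibroblast markers 8 were called lower and 1 higher with shMETTL3, and 10 lower and 1 higher with shMETTL14. CD68 was called higher in both (1.21 and 1.68), and of the 3 epithelial markers tested 1 was called lower with shMETTL3 and 2 higher with shMETTL14. TIE1 was called higher and TEK lower in both. The part of these markers in the results was not tested. With shMETTL3 all 7 tested genes were called and with shMETTL14 6 were, where 40.2% of all tested genes were called in each. With shMETTL3, 6 of 7 tested genes were called higher, where 20.1% of all tested genes were, and 1 lower, where 20.1% were. With shMETTL14, 5 were called higher, where 19.7% were, and 1 lower, where 20.5% were (edgeR, adjusted p below 0.05). Without AREG and HBEGF, 5 of 5 genes were called with shMETTL3 and 4 of 5 with shMETTL14. The log2 fold change of EREG was 3.11 (SE 0.18) with shMETTL3 and 3.99 (SE 0.18) with shMETTL14, and that of HBEGF 1.66 (SE 0.39) and 3.41 (SE 0.32). NRG1 stood at 3.97 (SE 0.22) and 1.95 (SE 0.20), and ERRFI1 at 2.35 (SE 0.17) and 2.92 (SE 0.17). AREG was at least 7.39-fold higher with shMETTL3 (5.05-fold without shMETTL3 replicate 1) and at least 2.34-fold higher with shMETTL14 than the floor of 3 counts in control cells. ERBB2 was the gene called lower in both, at -1.11 (SE 0.31, edgeR adjusted p = 0.0060) and -0.90 (SE 0.31, edgeR adjusted p = 0.022). ERBB2 was no longer called with shMETTL3 without control replicate 2 (-0.98, adjusted p = 0.056) or shMETTL3 replicate 2 (-0.50, adjusted p = 0.15), while without shMETTL3 replicate 1 it was at -2.13 (adjusted p = 3.6e-06). With shMETTL14 it was no longer called with DESeq2 (-0.89, adjusted p = 0.10) or without control replicate 2 (-0.76, adjusted p = 0.14), shMETTL14 replicate 1 (-0.96, adjusted p = 0.079) or shMETTL14 replicate 2 (-0.81, adjusted p = 0.12). EGFR was the gene that differed between these counts, called higher with shMETTL3 (0.54, SE 0.13, edgeR adjusted p = 0.0015) and at 0.02 (SE 0.13, edgeR adjusted p = 0.92) with shMETTL14.

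Relative to EGFR per kilobase, NRG1 stood at 3.79 and 4.69 with shMETTL3 and at 1.07 and 1.89 with shMETTL14. EREG relative to EGFR stood at 2.39 and 3.08 with shMETTL3 and at 8.22 and 6.32 with shMETTL14. The order of the 2 ligands turned between the knockdowns: the ratio of EREG to NRG1 per kilobase was 0.715 and 0.736 in the shControl libraries, 0.631 and 0.657 in the shMETTL3 libraries and 7.66 and 3.35 in the shMETTL14 libraries.

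EREG, AREG, BTC and a further EGF-family gene, EPGN, lie within 500 kb of each other on chromosome 4, on the side of a cluster of chemokine genes. The genes around EREG were looked at after the values of EREG were seen. In senescent shControl cells against control cells, the tested chemokine genes CXCL1, CXCL5, CXCL2 and CXCL3, which attract neutrophils, were called higher. CXCL1 (log2 fold change 6.68) had 11 and 9 control counts against 844 and 746, and CXCL5 (9.05) had 6 and 5 against 2402 and 2164. CXCL2 had 0 and 4 against 60 and 53, and CXCL3 had 0 and 3 against 284 and 254. With so few control counts the size of these rises is uncertain, and for CXCL5, CXCL2 and CXCL3 the filter favored a difference. MTHFD2L (1.83), a mitochondrial folate enzyme gene that lies between the chemokine genes and EREG, was also called higher. With shMETTL3 against shControl the chemokine genes CXCL1 (-3.14), CXCL5 (-4.17), CXCL3 (-4.42) and CXCL2 (-1.65) were called lower, each by more than EREG (-0.82), and MTHFD2L (-0.35) was not called. With shMETTL14, CXCL1 (-2.94), CXCL5 (-5.30) and CXCL3 (-2.76) were called lower, whereas CXCL2 (0.70, edgeR adjusted p = 0.089), MTHFD2L (-0.16) and EREG (0.06) were not. EPGN, at -56.7 kb, had 2 and 3 counts in the control libraries, against 10 and 8 with shControl. The shMETTL3 libraries held 6 and 7 and the shMETTL14 libraries 11 and 7, and the gene was not tested.

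**Figure D4:**
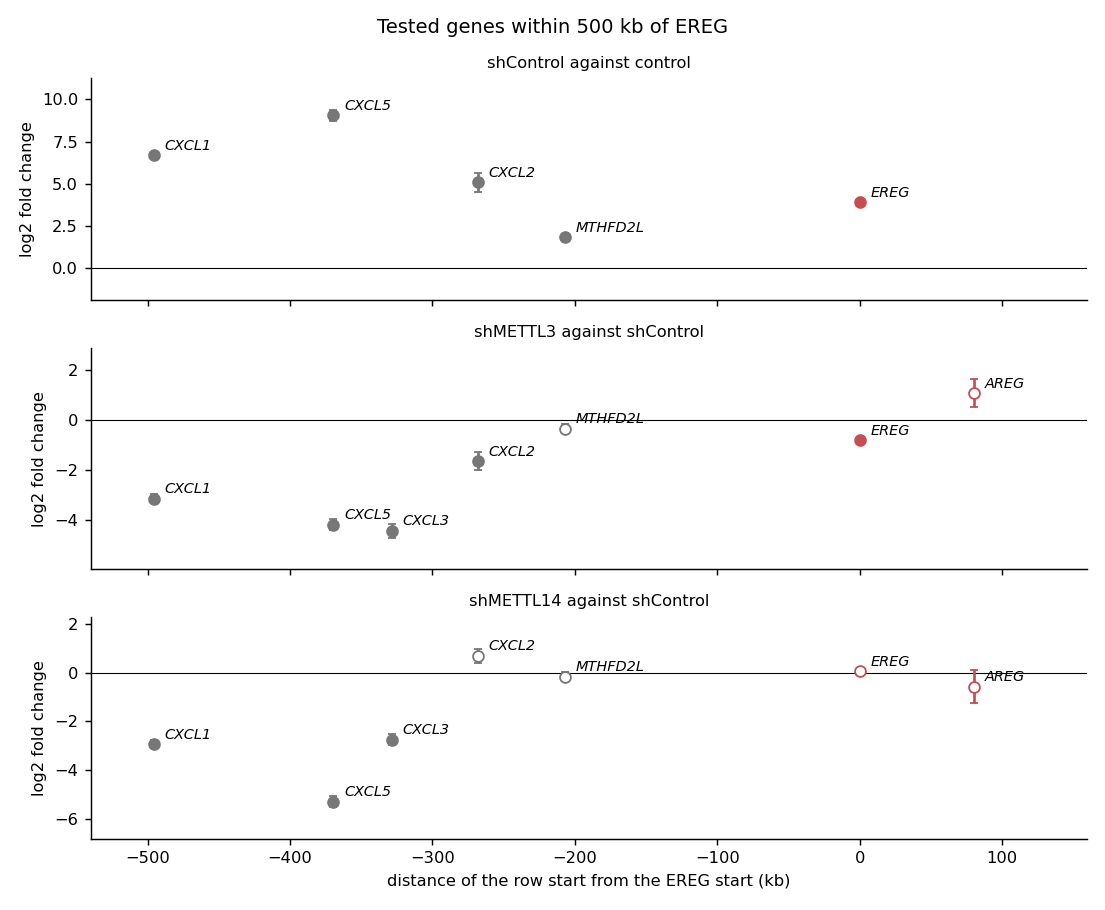
Log2 fold change with its standard error for tested genes within 500 kb of EREG, by distance of the row start from the EREG start in kb, in shControl against control (top), shMETTL3 against shControl (middle) and shMETTL14 against shControl (bottom); red marks EREG and AREG, grey other genes, filled points have an edgeR adjusted p below 0.05, and AREG and CXCL3, with at most 3 counts over both control libraries, are left out of the top panel. In the top panel CXCL2 rests on 0 and 4 control counts and CXCL5 on 6 and 5. CXCL1, CXCL5 and CXCL3 fall in both knockdowns, and EREG is at -0.82 with shMETTL3 and 0.06 with shMETTL14.

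Genes whose course over the 8 libraries was most like that of each family gene were found by Pearson correlation of log2 CPM among 3883 genes whose mean count was 100 or more. The libraries share groups and normalization, and these values are descriptions. EREG was most like TFPI2 (r = 0.997), a serine protease inhibitor gene, NAV3 (0.995) and MCL1 (0.992), an anti-apoptotic BCL2 family gene. HBEGF was most like CSF3 (0.994), the gene of granulocyte colony-stimulating factor, complement C3 (0.994) and the metallothionein gene MT2A (0.992). NRG1 was most like TRPS1 (0.997), a GATA-type transcription factor gene, the collagen lysyl hydroxylase gene PLOD2 (0.991) and TIPARP (0.987). EGFR was most like PRRC2C (0.998), PRICKLE2 (0.994) and COL7A1 (0.990), ERBB2 was most like PKD1 (0.970), CHURC1-FNTB (0.959) and KHDRBS1 (0.957), and ERRFI1 was most like SAT1 (0.996) and CEMIP2 (0.996). Among the family genes themselves, NRG1 was closest to AREG (0.847), whose counts were low, and to EGFR (0.844), ahead of EREG (0.757) and HBEGF (0.554).

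Genes that act with this family moved in both directions. In senescent shControl against control cells, the median log2 fold change over all tested genes was -0.03, and 13.3% were called higher and 13.3% lower. Of 6 genes of ligand shedding, 2 were called higher and 1 lower (median 0.31): the metalloprotease ADAM12 (1.64) and the iRhom gene RHBDF1 (0.87) were higher, and ADAM10 (-0.41) was lower. Of 10 adaptor genes, 2 were higher and 3 lower (median -0.12), with SHC1 (0.91) higher and GAB2 (-1.03), GAB1 (-0.95) and EPS8 (-0.87) lower. Of 11 genes from RAS to ERK, 2 were higher and 2 lower (median -0.07). HRAS (0.81) and MAP2K1 (0.63) were higher and KSR1 (-1.01) and NRAS (-0.93) lower, and reads of the H-RAS transgene cannot be told apart from those of HRAS in this row.

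Of 10 PI3K and STAT genes, PIK3CB (0.54) was called higher and STAT5B (-0.73) and STAT3 (-0.51) lower (median -0.10). Of 10 genes of receptor turnover and inhibition, SH3KBP1 (0.99), an endocytic adaptor gene, was higher and LRIG3 (-1.43) and SOCS5 (-0.78) were lower (median 0.27).

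With shMETTL3 against shControl, 2 shedding genes were called higher, ADAM12 (0.85) and ADAM17 (0.56), and none lower (median 0.31). Over all tested genes the median was -0.03, with 12.2% called higher and 11.2% lower. Of the adaptors 3 were higher, GAB1 (0.89), EPS8 (0.82) and SOS2 (0.69), and 3 lower, led by SHC1 (-0.83) (median -0.01). From RAS to ERK 2 were higher, with NRAS at 1.03, and 3 lower, MAPK3 (-1.11), MAP2K2 (-0.74) and HRAS (-0.70) (median 0.07). Among the PI3K and STAT genes PIK3R2 (-0.67) and AKT1 (-0.58) were lower. CBLB (1.25), a ubiquitin ligase gene, LRIG3 (0.99) and SH3KBP1 (0.75) were higher and 2 genes of receptor turnover lower, with RNF41 at -0.73 (median 0.03). Of the other EGF-family genes, the low NRG4 had 15 and 21 counts against 4 and 3 and was called higher (2.11, SE 0.61, edgeR adjusted p = 0.012).

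With shMETTL14 against shControl, the shedding genes ADAM10 (-1.12), ADAM9 (-0.87) and ADAM12 (-0.55) were called lower and ADAM17 (0.65), the main releasing enzyme of AREG, EREG and HBEGF, higher (median -0.35). Over all tested genes 21.2% were called in this comparison. EPS8 (1.01) was higher and PLCG1 (-0.75) and SHC1 (-0.54) lower among the adaptors (median -0.03). MAP2K1 (0.83) was the 1 of 11 genes from RAS to ERK that was called (median 0.16). AKT2 (0.51) was higher among the PI3K and STAT genes, and SOCS4 (-0.88) and LRIG3 (-0.78) were lower among genes of receptor turnover, with none called higher (median -0.17). Of the 6 other EGF-family genes, 3 were tested and 0 were called by edgeR in this comparison.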

How the data were processed

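fastGRO-seq was measured in 8 libraries, 2 in each of 4 groups taken from the labels. The authors aligned the reads to hg19 (the submitters' processing notes list STAR), and the deposited table holds raw counts per gene from HOMER, taken over exons and introns, not normalized, with 1 column per library. The file header states a setting for 1 strand, but in 52 pairs of genes nested on opposite strands the outer gene had fewer counts than the inner gene in 0 pairs, so strands were treated as not separated. Gene length and the number of condensed copies are columns of the same file.

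Counts of all 8 libraries were fitted together with edgeR 4.0.16 in R 4.3.3 (TMM, filterByExpr with a minimum count of 10, quasi-likelihood test), and 12844 of 27945 genes were tested. The common biological coefficient of variation was 10.6%. Genes were called at a Benjamini-Hochberg adjusted p below 0.05 over all tested genes. Normalized counts are TMM-scaled. Where a group had 0 counts, a fold is a lower bound against 3 counts in each library of that group. The script was tested on simulated data. The members and gene lists were chosen with earlier results of these data known. Named are the 10 genes, METTL3 and METTL14, up to 4 called genes with the largest change per list and comparison, and the 3 genes most like each tested gene with a mean of at least 20 counts. Some genes that this rule covers are not reported here. The genes around EREG were added after values were seen. Alternatives were DESeq2 1.42.0, library size alone, upper quartile normalization, other filters, fits of only the groups compared, the replicate number as a block, removal of ribosomal RNA rows, an adjusted p below 0.01 and each library left out. An offset for gene length (lowess) was added after seeing the data. Same-numbered libraries had deviations that correlated between -0.06 and 0.29, so the numbers were not taken to pair libraries. The spike-in and other assays were not used here, and a shift common to all genes is not visible in these values. Plots were drawn with matplotlib 3.10.9.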

Additional observations from a re-analysis of the deposited data

Results flagged for a closer look

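The direct test between the knockdowns differed from 0 for 6 of the 7 tested genes (edgeR's quasi-likelihood test, Benjamini-Hochberg adjusted p below 0.05). Log2 fold changes of shMETTL14 against shMETTL3 were 1.75 for HBEGF, 0.88 for EREG and 0.57 for ERRFI1, and -2.02 for NRG1, -1.63 for AREG and -0.52 for EGFR. In each of the 6 genes both shMETTL14 libraries lay on the same side of both shMETTL3 libraries. These genes were picked by their calls, so this separation is a description and adds no support. Its share over all tested genes was not counted. AREG passed the filter on low counts only in the shMETTL3 libraries, its high group, and without it 5 of 6 genes were called. Over all tested genes 35.2% were called in this comparison.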

How the results depend on the processing

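Of 699 values of single genes under other settings, 644 kept their direction and side of the threshold, 22 lost and 19 gained a call in the same direction, and 14 changed sign. The sign changed in values that were not called in the first place. Scaling by library size alone put the median of all tested genes at -0.53 (shControl against control), 0.58 (shMETTL3 against shControl), 0.35 (shMETTL14 against shControl) and -0.25 (shMETTL14 against shMETTL3), a move of -0.50, 0.61, 0.35 and -0.26, and turned the split of calls in the first comparison from 1711 higher and 1702 lower to 752 and 5007, in the second from 1573 and 1434 to 5285 and 353, in the third from 1175 and 1545 to 3163 and 710, and in the direct comparison from 2118 and 2399 to 1177 and 3486. Under it EREG (-0.19, adjusted p = 0.39) and NRG1 (-0.02, adjusted p = 0.92) were no longer called lower with shMETTL3, and AREG (1.66) and EGFR (0.82) were called higher. Relative to the median of 0.58 these values were -0.77 for EREG, -0.60 for NRG1, 1.08 for AREG and 0.24 for EGFR. With shMETTL14 against shControl 4 genes were then called, EREG (0.43), HBEGF (0.71) and ERRFI1 (0.72) being higher. Signs changed under this scaling for EGFR against control (-0.16 with shControl, 0.38 relative to the median, and -0.13 with shMETTL14) and with shMETTL14 against shControl (0.030), for ERRFI1 with shMETTL3 (0.41) and for ERBB2 between the knockdowns (-0.034).

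EGFR with shMETTL3 against shControl was at -0.081 with the length offset, and with shMETTL14 against control at -0.0054 with upper quartile scaling and at -0.011 with at least 10 counts in every library. Over fits that each left out 1 library the sign also turned for EGFR with shMETTL14 against control (-0.044 to 0.11), ERBB2 with shMETTL3 against shControl (-0.98 to 0.65) and between the knockdowns (-0.39 to 1.24), and AREG (-1.07 to 0.14) and EREG (-0.077 to 0.17) with shMETTL14 against shControl. The number of genes called with shMETTL14 against shControl, 1 of 7, was 2 in a fit of only those groups and lay between 1 and 3 over fits that each left out 1 library (3 without either shMETTL3 library, 2 without shMETTL14 replicate 2), the added genes being EGFR lower and ERRFI1 higher. The ranges of called genes over these fits were 5 to 7 for shControl against control, 2 to 3 for shMETTL3 against shControl, 4 to 6 between the knockdowns, 6 to 7 for shMETTL3 and 5 to 6 for shMETTL14 against control. EGFR with shControl against control, which missed the threshold, passed in 7 fits: of only the groups compared (0.38), without ribosomal RNA rows (0.37), with the length offset (0.48) and without each of the 4 knockdown libraries (0.35 to 0.38). DESeq2 called fewer of all genes, 1231 higher and 908 lower in the first comparison, 971 and 727 in the second, 568 and 951 in the third and 1212 and 1707 in the direct comparison. Calls over all genes also fell by more than 1.5 times in some fits with 1 library left out, as to 1066 and 763 in the first comparison without shControl replicate 1, 769 and 723 in the second without shControl replicate 2, 486 and 784 in the third and 995 and 1409 in the direct comparison without shMETTL14 replicate 1. Library size alone gave 1826 and 3078 for shMETTL14 against control, from 2531 and 2636. A filter of 10 counts in every library left AREG and HBEGF out.

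With the replicate block 6, 3, 1 and 6 of 7 genes were called in the 4 comparisons in the order above, and 7 and 6 against control, each as without it, and the pairing correlations were -0.06 to 0.29. Depth limits AREG, HBEGF and ERBB2, with at most 101 counts in any library, more than NRG1 or EGFR.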
